A study of Mus musculus with 7 samples.

Results

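Cytoplasmic ribosomal protein genes were examined in 7 RNA-Seq samples of mouse knee cartilage collected 2 weeks after destabilization of the medial meniscus (DMM), a surgery that induces osteoarthritis. A row of the count table was taken as a member when its symbol had the form of an Rpl or Rps gene with a number, or was Rplp0, Rplp1, Rplp2, or Rpsa. Rps3a2, whose symbol also has this form, was left out of the members. This gave 88 of 55401 genes, 53 named for the large (60S) subunit and 35 for the small (40S) subunit. The rule used symbols alone and no measured value. Of these genes, 83 were annotated as protein coding in GENCODE M21 and 5 (Rpl6l, Rpl32l, Rps12l1, Rps3a3, and Rps4l) as processed pseudogenes. They lay on 19 chromosomes, with 15 genes on chromosome 7.

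The comparison was between 4 WT samples and 3 samples from mice in which exon 8 of the calcium channel gene Trpc1 is deleted throughout the body (Trpc1-/-), which leaves a transcript with an early stop codon. All mice were male C57BL/6J, and all underwent DMM of the right knee at 10 weeks of age, with sham surgery on the left. The labels name every sample as DMM, so that no sham or unoperated sample enters the comparison. Each sample pooled tissue of 2 to 3 knees, per the study's methods. The labels name cartilage of the femoral head and tibial plateau, and the study's methods add subchondral bone. The numbers in the sample column names fell in the 1300s for WT replicates 1 and 2 and all Trpc1-/- samples. They fell in the 1700s for WT replicates 3 and 4. These are called mouse numbers below, though the names themselves do not say what they count. Nothing in the labels says that the replicate numbers mark shared litters or days.

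The cytoplasmic ribosome reads mRNA and joins amino acids in every cell. Its small subunit decodes the message, its large subunit forms the peptide bond, and each ribosome holds about equal numbers of most of its proteins. Ribosomal protein mRNAs are therefore among the most abundant messages of growing cells, and many begin at a C followed by a run of pyrimidines, the 5′ terminal oligopyrimidine (TOP) motif, through which mTOR and LARP1 adjust their translation. Mammalian genomes also hold very many processed pseudogenes of these genes, and a few true paralogs whose use is restricted to muscle, testis, or other settings.

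Between 52142451 and 118254070 counts per sample fell on genes, of which 660347 to 2896550 fell on the members. Trpc1 itself was measured at 4.83, 4.55, 4.77, and 4.33 normalized CPM (counts per 1e6 counts) in WT replicates 1 to 4 and at 3.35, 3.79, and 3.04 in Trpc1-/- replicates 1 to 3. The groups did not overlap, and reads on Trpc1 remained, where a gene count also covers exons outside the deletion (edgeR logFC −0.44 ± 0.13 (SE), adjusted p = 0.407). Here and below, normalized CPM are counts scaled by edgeR's TMM factors, and logFC is the log2 fold change of Trpc1-/- over WT from edgeR's quasi-likelihood test. The cartilage markers were present, with 10 chondrocyte genes (such as Col2a1 and Acan) summing to between 6006 and 6336 CPM in WT and between 3443 and 6300 CPM in Trpc1-/- samples. WT replicate 1 stood apart from the other libraries in several respects. It had the lowest total, mitochondrially encoded genes took 22.5% of its counts against 14.2% to 17.6% elsewhere, and the 7SL and 7SK RNAs took 13.5% against 6.84% to 11.5%.

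Levels of the members were compared per transcript length, as the mean normalized CPM per kb over the 7 samples. Rps12, a small-subunit protein, was the highest at 904 ± 131 CPM per kb (SD, n = 7). It was followed by the stalk protein Rplp1 at 722 ± 108, by Rpl41, which encodes one of the smallest known proteins, at 631 ± 104, by the stalk scaffold Rplp0 at 534 ± 87.6, and by Rps27 at 528 ± 111. Each of the first 3 exceeded the next gene in 7 of 7 samples, whereas Rplp0 exceeded Rps27 in 4 of 7, so that the order of these neighbours is not set beyond their spread. The 5 highest genes together held 9.98% of all ribosomal protein counts.

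The remaining core genes were close to one another. Core genes are all members other than the 7 paralogs described below. Among the 77 core genes annotated as protein coding the median level was 312 CPM per kb, the quartiles were 224 and 411, and 68 lay within 2-fold of the median. The median was 287 CPM per kb for the large subunit and 377 for the small subunit. The order of the genes was nearly the same in every pair of samples (Spearman's rho 0.943 to 0.997 over these genes, which share each library, so that this is a description). The lowest of the core genes were the pseudogenes Rpl32l at 2.83, Rps12l1 at 8.50, and Rpl6l at 15.96 CPM per kb, then Rps15a at 36.3 and Rps20 at 51.9. The annotated transcripts of Rps15a and Rps20 used for the length were 5130 and 3706 bases long, the longest of the members, and per sample these genes had 121 to 233 and 135 to 229 CPM, so that their low place rests on that length. Copies also bear on the levels, since 21 of the 88 members shared more than 50% of their 75-base windows, the length of a read, with another annotated gene.

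**Figure D1:**
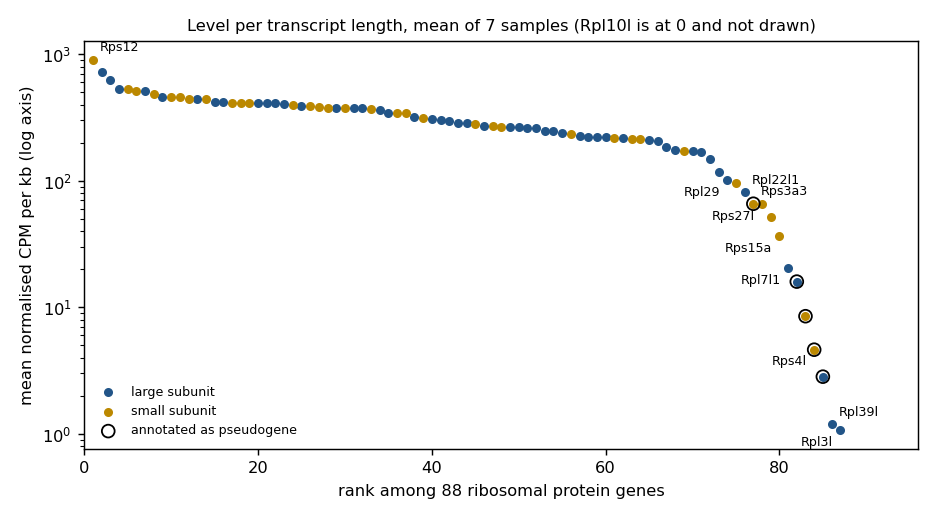
Mean normalized CPM per kb of transcript over the 7 samples (log axis) against rank among the 88 ribosomal protein genes, with large-subunit genes in blue, small-subunit genes in ochre, and pseudogene annotations circled (Rpl10l, at 0, is not drawn). Most core genes form a flat plateau around the median of 312, and the paralogs and pseudogenes fall below it.

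Summed over all members, ribosomal protein genes took 1.27%, 2.07%, 2.27%, and 2.12% of the counts in WT replicates 1 to 4. The share was 2.45%, 2.00%, and 2.22% in Trpc1-/- replicates 1 to 3. WT replicate 1 lay far below the other 6 samples, which overlapped between the genotypes. The WT mean was 1.93% ± 0.450 (SD, n = 4), and the mean of the Trpc1-/- samples was 2.22% ± 0.226 (SD, n = 3). They differed by 0.293 percentage points, less than the SD of the WT samples. Without WT replicate 1 the WT mean was 2.15% ± 0.103 (n = 3) and the difference 0.0718 points. That difference without WT replicate 1 depended on the scale, at 0.230 points for TMM-scaled shares (WT SD 0.102), 0.334 points for the share of nuclear protein-coding counts without globins (WT SD 0.146), and −0.0671 points for shares per length (WT SD 0.146). As a share of those nuclear protein-coding counts, the values were 2.28%, 3.01%, 3.30%, and 3.10% in WT and 3.56%, 3.14%, and 3.71% in Trpc1-/- samples, again with WT replicate 1 lowest.

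**Figure D2:**
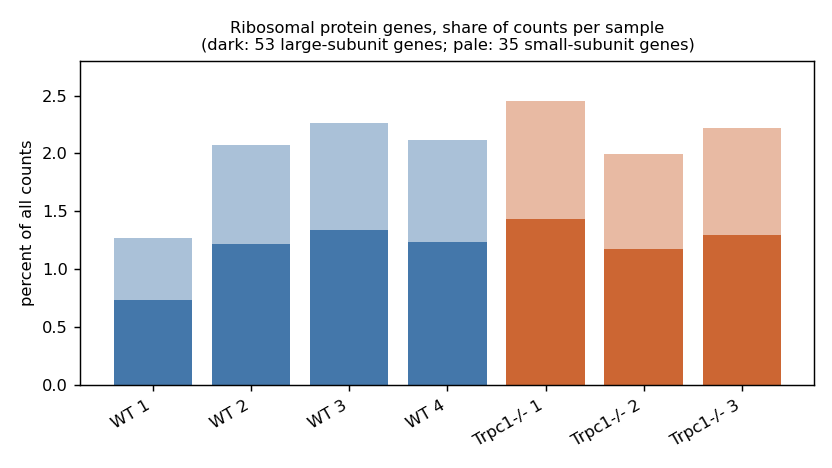
Share of all counts (percent) taken by the 53 large-subunit genes (dark) and 35 small-subunit genes (pale) in each sample, WT in blue and Trpc1-/- in orange. The bar of WT replicate 1 reaches 1.27%, and the other 6 reach 2.00% to 2.45%.

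The low share in WT replicate 1 was spread over almost every member. That sample was the lowest of the 7 for 83 of the 87 tested members (95.4%), against a background of 38% of all 16429 tested genes. On the scale of log2(normalized CPM + 0.5), the 77 core protein-coding genes in WT replicate 1 were lower than the mean of WT replicates 2 to 4 by a median difference of −0.59, and 77 of 77 were lower, whereas the median over all tested genes was −0.0046. The largest deficits were those of Rpl29 at −1.89, Rps26 at −1.16, and Rps29 at −1.06, and the smallest were those of Rps12 and Rps19, both −0.18.

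At the other end, Trpc1-/- replicate 3 was the highest sample for 52 of the 87 tested members (59.8%, background 11.3% of all tested genes). Trpc1-/- replicate 1 was the highest for 28 (32.2%, background 18.7%), and Trpc1-/- replicate 2 for 1 member (background 5.30%). The median deviation of Trpc1-/- replicate 2 from the gene means, 0.01, placed it between WT replicates 4 (0.00) and 3 (0.09). The spread within groups differed accordingly. Among the core protein-coding genes the median coefficient of variation was 17.5% over the 7 samples, 10.2% over the 3 Trpc1-/- samples, and 5.40% over WT replicates 2 to 4. Members moved together from sample to sample, so they do not count as independent replicates of one another.

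**Figure D3:**
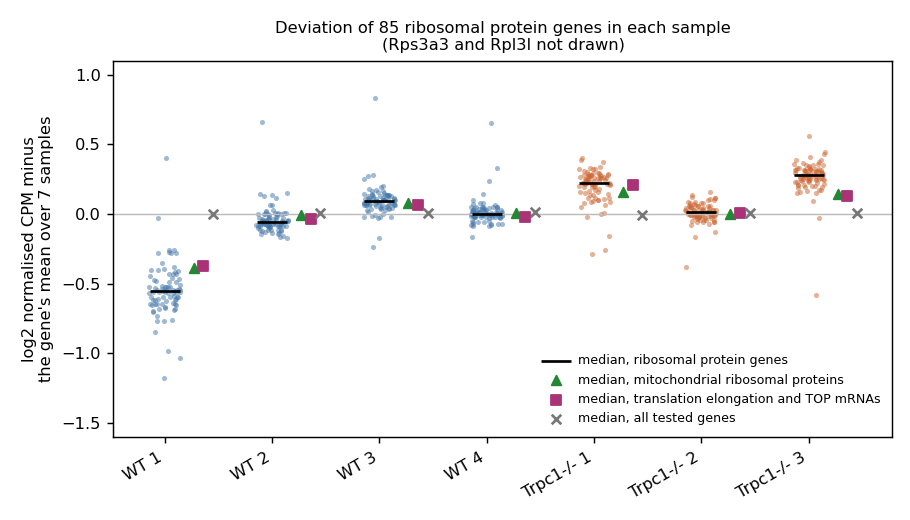
Deviation of log2 normalized CPM from each gene's mean over the 7 samples (points, 85 tested members, with Rps3a3 and Rpl3l not drawn), with medians for all members (black bars), mitochondrial ribosomal proteins (triangles), elongation factors and other TOP mRNAs (squares), and all tested genes (crosses). The cloud of WT replicate 1 is centred at −0.55, those of Trpc1-/- replicates 1 and 3 at 0.22 and 0.28, and the crosses stay near 0 throughout.

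Whether loss of Trpc1 went with a change of ribosomal protein mRNA was asked gene by gene. None of the 87 tested members passed an adjusted p of 0.05 in edgeR (0% of all 16429 tested genes did, either way), with 8 members higher and 0 lower at an unadjusted p under 0.05. That was 9.20% of the members against a background of 4.51% of all tested genes for higher and 5.49% for lower. DESeq2 also called 0 members, although it called 1.79% of all tested genes (0.962% higher and 0.828% lower). Rps3a2, left out of the members, is among the genes that the study lists as differentially expressed, higher in Trpc1-/- samples. DESeq2 placed 24 members higher (background 5.92%) and 0 lower (background 6.7%) at an unadjusted p under 0.05. In that fit 84 members had a log2 fold change above 0 (background 49%). The logFC was above 0 for 84 of the 87 (background 48.1%), with a median of 0.28 beside −0.01 for all tested genes and with quartiles of 0.25 and 0.32. The 8 members were Rpl22l1, Rpl39, Rplp2, Rps12, Rps14, Rps19, Rps21, and Rps27a. In 12 of the 87 members (13.8%) every Trpc1-/- sample lay above every WT sample, against a background of 7.15%, and in 0 members every Trpc1-/- sample lay below (background 6.42%). The 12 were Rpl21, Rpl22, Rpl22l1, Rpl30, Rpl35, Rpl36a, Rpl41, Rps14, Rps18, Rps19, Rps27, and Rps27a, of which 4 (Rpl22l1, Rps14, Rps19, and Rps27a) were also among the 8. Their names were chosen with the values known.

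The size of these values depended on WT replicate 1. Without it the median logFC of the members was 0.17 (near 0 for all tested genes), 83 of 87 were above 0 (background 49.6%), and 22 were higher and 1 lower at an unadjusted p under 0.05, where the background was 8.48% for higher and 8.38% for lower. Of the 87 members, 2 then passed the adjusted threshold, Rps3a3 higher and Rpl29 lower, in a fit in which 0.298% of all tested genes did (0.158% higher and 0.14% lower). Groups that did not overlap were found for 14 members higher and 2 lower (background 11.4% in each direction). In the samples of the 1300s alone (2 WT and 3 Trpc1-/-), the median logFC was 0.45, 84 of 87 were above 0 (background 48.9%), and 34 members were higher at an unadjusted p under 0.05 (background 4.79%) and 0 lower (background 8.38%), with 0 past the adjusted threshold. That subset keeps WT replicate 1 as 1 of its 2 WT samples.

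**Figure D4:**
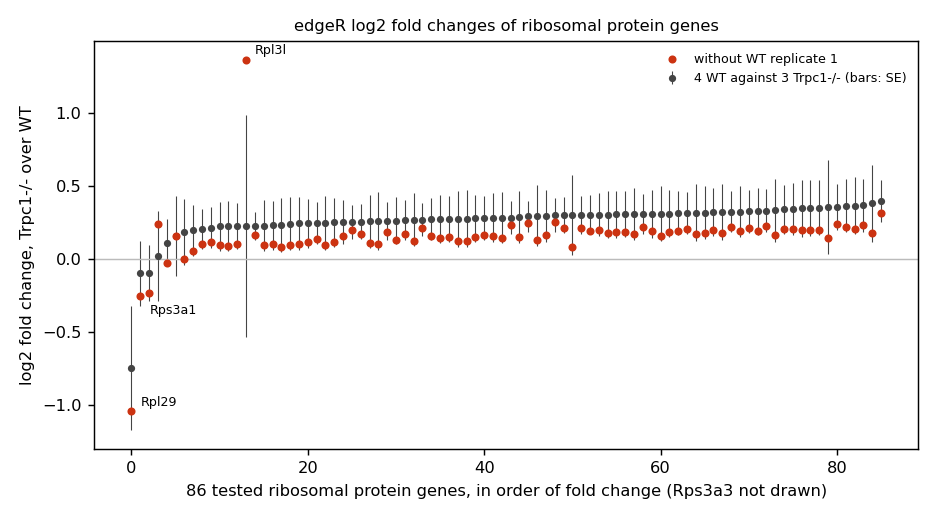
edgeR logFC of Trpc1-/- over WT for 86 tested members in order of size (black, bars are SE) and the same without WT replicate 1 (red), with Rps3a3 not drawn. Most black points lie between 0.2 and 0.4, most red points lie below them and above 0, and Rpl29 is lowest in both.

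Rpl39, a small protein that lines the exit tunnel of the large subunit, had the highest logFC among protein-coding members. Its normalized CPM were 97.9, 119, 134, and 127 in WT and 176, 131, and 165 in Trpc1-/- samples. Trpc1-/- replicate 2 lay among the WT samples, so the groups overlapped (logFC 0.40 ± 0.14 (SE), edgeR adjusted p = 0.454). Rps29 and Rpl32 had logFC of 0.38 ± 0.26 and 0.37 ± 0.18 (SE). Both were lowest in WT replicate 1, at 84.8 CPM for Rps29 and 146 for Rpl32, against 165 or more and 210 or more in the other 6 samples. Without that sample their logFC were 0.18 and 0.23.

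Rps19, required for maturation of the small subunit, had 172, 190, 202, and 194 CPM in WT and 234, 205, and 257 in Trpc1-/- samples. All 3 Trpc1-/- samples lay above all 4 WT samples, though the nearest samples were close (logFC 0.29 ± 0.11 (SE), edgeR adjusted p = 0.455). Rps27a, made as a fusion with ubiquitin, also did not overlap, at 178, 215, 233, and 235 CPM in WT and 274, 239, and 282 CPM in Trpc1-/- samples (logFC 0.30 ± 0.12). Rps12 itself had 370, 401, 436, and 420 CPM in WT and 513, 432, and 555 in Trpc1-/- samples, with Trpc1-/- replicate 2 inside the WT range.

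Genes were then taken by role. The stalk of the large subunit, made of Rplp0, Rplp1, and Rplp2, recruits the elongation factors. Rplp0 had 676 ± 131 CPM in WT and 791 ± 72.5 in Trpc1-/- samples (SD, 4 and 3 samples here and below), Rplp1 had 332 ± 45.6 and 399 ± 40.1, and Rplp2 had 163 ± 14.5 and 198 ± 23.4. Their logFC were 0.23 ± 0.17, 0.27 ± 0.14, and 0.28 ± 0.11 (SE), and the groups overlapped for all 3. Without WT replicate 1 they were 0.10, 0.17, and 0.23. Rpl5 and Rpl11, which bind 5S rRNA and, when unassembled, the p53 regulator MDM2, had logFC of 0.21 ± 0.14 and 0.35 ± 0.19, or 0.11 and 0.20 without WT replicate 1. Neither passed the test (edgeR adjusted p = 0.602 and 0.543), and both were lowest in WT replicate 1, at 337 and 114 CPM.

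A chosen list, not a complete one, held 9 members mutated in Diamond-Blackfan anemia, an inherited failure of red cell production. All 9 had a logFC above 0 (median 0.30, or 0.20 without WT replicate 1) and 0 passed the test. Of all 87 tested members, 84 were above 0 (median 0.28, or 0.17 without WT replicate 1), so the count does not set the 9 apart. Rps26, one of them, had 68.2 CPM in WT replicate 1 and 140 to 167 in the other WT samples, beside 169, 146, and 174 in Trpc1-/- samples. Its logFC of 0.30 ± 0.28 (SE) was 0.08 without that sample. Rpl35a had 136 ± 24.99 CPM in WT and 170 ± 21.6 in Trpc1-/- samples. Rps6, the target of S6 kinase on the small subunit, had 303 ± 60.4 and 368 ± 39.3 CPM. Rpsa, also known as a laminin receptor, had 606 ± 111 and 737 ± 68.0 CPM, and Rps3, which also acts in DNA repair, had 378 ± 74.0 and 442 ± 41.0 CPM. In each of these the difference between the means was below the sum of both SDs.

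The ratio of the subunits was then compared. Summed small-subunit counts divided by summed large-subunit counts gave 0.734, 0.700, 0.700, and 0.712 in WT replicates 1 to 4 and 0.711, 0.699, and 0.720 in Trpc1-/- replicates 1 to 3. The means were 0.711 ± 0.0160 (SD, n = 4) and 0.710 ± 0.0105 (SD, n = 3), so that the difference of −0.00165 was smaller than the SD of either group. Without WT replicate 1 the WT mean was 0.704 ± 0.00695 (SD, n = 3) and the difference turned to 0.00584, still below that SD. WT replicate 1, with the lowest share of ribosomal protein counts, had the highest ratio. The median logFC was 0.28 for the 52 tested large-subunit genes and 0.30 for the 35 small-subunit genes, and 0.17 and 0.18 without WT replicate 1. Per length, the ratio was 0.754 ± 0.0155 in WT and 0.753 ± 0.00973 in Trpc1-/- samples.

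Shorter transcripts had slightly larger values. Among the 77 core protein-coding genes, the median logFC was 0.32 for the 24 genes under 600 bases, 0.28 for the 34 genes from 600 to below 1000 bases, and 0.26 for the 19 genes of 1000 bases or more. Spearman's rho between logFC and log2 length was −0.380 and Pearson's r was −0.0977 over these genes. Against log2 mean CPM they were −0.378 and 0.0811, and length and level were not separated. The genes share all libraries, and these values are given as a description.

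Of the members, 7 have a more widely used parent gene, and for each pair the paralog was expressed as a percent of paralog plus parent counts. Rpl22l1, which can stand in for Rpl22, made up 27.5%, 25.4%, 25.3%, and 27.1% in WT and 25.6%, 26.2%, and 25.8% in Trpc1-/- samples. Rps27l, a p53-responsive relative of Rps27, made up 15.5% ± 1.02 in WT against 14.96% ± 0.284 in Trpc1-/- samples. For both, the genotypes overlapped (exact permutation test over 35 splits, two-sided, p = 0.486 and 0.429, adjusted p = 0.617 for both over 6 pairs). The smallest p that 4 against 3 samples allow is 0.0286.

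Rpl7l1, a nucleolar relative of Rpl7, was the pair with the clearest separation. It made up 11.6%, 10.96%, 11.4%, and 11.2% in WT and 10.3%, 10.2%, and 10.3% in Trpc1-/- samples, so that every Trpc1-/- sample lay below every WT sample. The difference of −1.01 percentage points had p = 0.0286 in the exact permutation test, the smallest possible, and an adjusted p of 0.171 over the 6 pairs. Rpl7l1 had 51.2 ± 10.4 CPM in WT and 55.4 ± 2.77 CPM in Trpc1-/- samples and Rpl7 had a logFC of 0.26 ± 0.18 (SE), beside 0.11 ± 0.16 for Rpl7l1. Without WT replicate 1 these logFC were 0.11 and −0.02. Rps4l, an intronless relative of Rps4x annotated as a pseudogene, made up 1.08% ± 0.120 in WT and 0.852% ± 0.0368 in Trpc1-/- samples, with all Trpc1-/- samples below all WT samples (exact permutation p = 0.0571, adjusted p = 0.171).

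Paralogs restricted to other tissues were scarce. Rpl10l, a testis gene that takes the place of Rpl10 when the X chromosome is silent, had 0 counts in all 7 samples, where 3 counts would correspond to between 0.0254 and 0.0575 CPM per sample. Rpl39l, another testis paralog, made up 0.828% ± 0.389 of the pair with Rpl39 in WT and 0.607% ± 0.172 in Trpc1-/- samples (exact permutation p = 0.514, adjusted p = 0.617). Rpl3l, the striated muscle form of Rpl3, had 176, 71, 74, and 43 counts in WT and 99, 139, and 236 in Trpc1-/- samples, or 3.71, 0.672, 0.602, and 0.547 normalized CPM in WT and 0.808, 1.497, and 2.41 in Trpc1-/- samples. WT replicate 1 was the highest of all samples and the other 3 WT samples were the lowest. Its logFC was 0.23 ± 0.76 (SE) with all samples and 1.36 ± 0.38 without WT replicate 1 (edgeR adjusted p = 0.162). The summed level of 10 skeletal muscle markers (such as Acta1 and Ckm) was 1312 CPM in WT replicate 1, 73.0 to 259 CPM in the other WT samples, and 400 to 1102 CPM in Trpc1-/- samples. All 10 markers had a logFC above 0 with all samples (median 0.61, background 48.1%) and without WT replicate 1 (median 2.02, background 49.6%). In the 1300s alone 2 of the 10 markers did (median −0.08, background 48.9%). None was at 0 counts throughout, and their part in the values of Rpl3l was not tested.

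Rps3a3, a processed pseudogene at chr13:108670603-108671397 (GRCm38, plus strand) derived from Rps3a1, had the highest logFC of all members. Its normalized CPM were 66.0, 10.6, 5.51, and 4.91 in WT replicates 1 to 4 and 76.7, 139, and 63.9 in Trpc1-/- replicates 1 to 3. WT replicate 1 lay within the range of the Trpc1-/- samples, and the other 3 WT samples were far lower. With all samples the logFC was 2.12 ± 0.92 (SE, edgeR adjusted p = 0.499), and without WT replicate 1 it was 3.73 ± 0.40 (edgeR adjusted p = 0.0215). The parent Rps3a1 (chr3:86137940-86142702, minus strand) had 294, 470, 514, and 499 CPM in WT and 449, 325, and 471 CPM in Trpc1-/- samples (logFC −0.10 ± 0.22). Rps3a3 was 16.4%, 2.06%, 1.00%, and 0.917% of the counts of Rps3a1, Rps3a2, and Rps3a3 in WT and 13.04%, 25.5%, and 10.8% in Trpc1-/- samples. Rps3a2, a further copy left out of the members, had 43.3, 32.7, 31.4, and 31.1 CPM in WT and 62.6, 81.5, and 57.0 in Trpc1-/- samples. Its groups did not overlap.

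Over 792 aligned coding bases, Rps3a3 matched Rps3a1 at 98.9% (9 mismatches), and Rps3a2 matched it at 99.5% (4 mismatches). Of the 75-base windows of Rps3a1 and Rps3a3, 60.2% and 45.4% were shared with another annotated gene. The first 75-base stretch with the most differences between Rps3a1 and Rps3a3, of which it holds 2, is shown with the differing bases in capitals. Reads across those bases can tell Rps3a1 and Rps3a3 apart. Whether Rps3a2 or other copies carry the same bases was not examined. The stretch covers coding bases 186 to 260, at chr3:86141333-86141407 (minus strand) for Rps3a1 and chr13:108670788-108670862 (plus strand) for Rps3a3, in GRCm38, within a coding exon of Rps3a1 and the intronless copy of Rps3a3.
Rps3a1: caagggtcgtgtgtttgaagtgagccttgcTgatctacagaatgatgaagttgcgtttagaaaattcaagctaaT
Rps3a3: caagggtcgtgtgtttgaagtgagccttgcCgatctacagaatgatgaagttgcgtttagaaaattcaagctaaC
The counts summed over Rps3a1, Rps3a2, and Rps3a3 came to 404, 513, 551, and 535 CPM in WT and to 588, 546, and 592 CPM in Trpc1-/- samples. Further copies are not in this sum. Among them Gm13408, Gm5586, and Gm7600 shared 30.2%, 28.7%, and 23.4% of the windows of Rps3a1, beside 25.6% for Rps3a3. The study also lists Gm13408 as higher in Trpc1-/- samples. The sum placed WT replicate 1 lowest and 2 of the 3 Trpc1-/- samples highest, with Trpc1-/- replicate 2 inside the WT range, as for most other members. How the pipeline divided reads among these genes was not tested.

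Rpl29 (chr9:106429454-106431568, plus strand), a large-subunit protein, was the member with the lowest logFC. Its normalized CPM were 28.2, 102, 115, and 102 in WT and 53.6, 58.7, and 42.9 in Trpc1-/- samples. WT replicate 1 was the lowest of all samples and the other WT samples were the highest, so that the genotypes overlapped through that sample alone. The logFC was −0.74 ± 0.42 (SE, edgeR adjusted p = 0.558) with all samples and −1.04 ± 0.12 (edgeR adjusted p = 0.0258) without WT replicate 1. Windows of 75 bases in Rpl29 were shared with 43 other annotated genes, mostly processed pseudogenes, which together had 37.5, 27.4, 25.2, and 22.2 CPM in WT and 83.2, 60.8, and 88.3 CPM in Trpc1-/- samples. Among them Gm13841 had 10.6, 4.37, 3.48, and 2.94 CPM in WT and 26.2, 17.5, and 27.2 CPM in Trpc1-/- samples. Gm17669 ran the other way, at 1.33, 3.62, 4.06, and 3.64 CPM in WT and 1.72, 1.86, and 1.14 CPM in Trpc1-/- samples. Both were chosen with the values known. Rpl29 and these genes summed to 65.6, 129, 140, and 124 CPM in WT and to 137, 120, and 131 CPM in Trpc1-/- samples. In the sum, Trpc1-/- replicates 1 and 3 lay within the range of WT replicates 2 to 4, Trpc1-/- replicate 2 lay just below it, and WT replicate 1 was the lowest. The part of read sharing in the difference of Rpl29 was not tested.

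**Figure D5:**
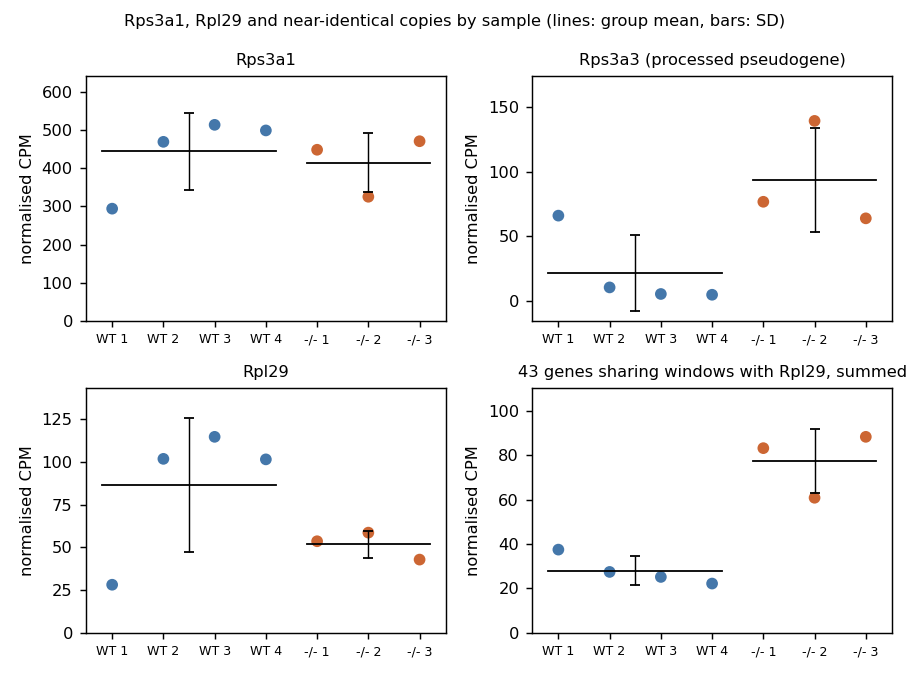
Normalized CPM of Rps3a1, its processed pseudogene Rps3a3, Rpl29, and the sum of 43 genes that share 75-base windows with Rpl29, by sample (points, WT in blue and Trpc1-/- in orange), with group means (lines) and SD (bars). For Rps3a3 and Rpl29, WT replicate 1 lies beside the Trpc1-/- samples and apart from WT replicates 2 to 4.

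Because the members moved together between samples, the sequence at their start sites was examined for a TOP-like tract. It was defined as a C followed by at least 4 further bases that are each C or T on the transcribed strand, with the first C within 5 bases of the RefSeq start (GRCm38.p6). Of the 88 members, 64 had a RefSeq promoter sequence, and 30 of these (46.9%) held the tract at 1 start site or more, as did 21.2% of all 27025 genes with a sequence and 24.6% of 69 mitochondrial ribosomal protein genes. The windows shown run from 15 bases before the start through 14 bases after its first base, with the tract in capitals. They show genes named above for their level or their difference, first those with a tract and then those without one.
Rpl39 (chrX:37085208-37085237, minus strand): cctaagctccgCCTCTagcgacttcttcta
Rps27 (chr3:90213634-90213663, minus strand): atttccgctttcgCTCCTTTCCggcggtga
Rplp2 (chr7:141447636-141447665, plus strand): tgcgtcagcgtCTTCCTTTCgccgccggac
Rps6 (chr4:86857353-86857382, minus strand): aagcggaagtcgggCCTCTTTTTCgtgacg
Rps26 (chr10:128626492-128626521, minus strand): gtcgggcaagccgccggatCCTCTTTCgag
Rps12 (chr10:23787195-23787224, minus strand): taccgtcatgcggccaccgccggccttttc
Rplp0 (chr5:115559452-115559481, plus strand): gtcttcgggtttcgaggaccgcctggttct
Rps3a1 (chr3:86142654-86142683, minus strand): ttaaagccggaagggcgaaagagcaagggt
Levels and differences were then set beside the tract. Among core protein-coding genes with a RefSeq start, the median level was 262 CPM per kb for 27 with the tract and 331 CPM per kb for 30 without it. The median logFC was 0.30 with the tract and 0.27 without it, and WT replicate 1 differed from WT replicates 2 to 4 by a median of −0.56 and −0.60. A missing match says only that no such tract begins within 5 bases of this start. The Rps12 window shown ends in a run of pyrimidines led by a C, which begins further downstream and is not counted.

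Other genes of the translation apparatus were counted in the same fit. Rack1, Fau, and Rpl36al, ribosomal proteins whose symbols fall outside the rule, had logFC of 0.25 ± 0.18, 0.22 ± 0.17, and 0.25 ± 0.20 (SE), and none passed the test (edgeR adjusted p = 0.637, 0.654, and 0.656). Without WT replicate 1 these were 0.10, 0.09, and 0.08. Of 14 elongation factors and other TOP mRNAs, 14 were above 0 with a median of 0.19 (background 48.1%). Without WT replicate 1, 12 of 14 were, with a median of 0.11 (background 49.6%). None passed the adjusted threshold in edgeR, while 3 were higher at an unadjusted p under 0.05 (background 4.51%). Those were Tpt1, a growth-related TOP mRNA, with 433 ± 18.7 CPM in WT and 510 ± 9.54 CPM in Trpc1-/- samples (edgeR adjusted p = 0.455), Nap1l1, a histone chaperone, with 107 ± 1.42 and 123 ± 5.77 CPM (adjusted p = 0.442), and Npm1, a nucleolar assembly factor, with 217 ± 34.2 and 278 ± 23.3 CPM (adjusted p = 0.480). The median deviation of the 14 in WT replicate 1 was −0.37, but not all were low there. For Tpt1, WT replicate 1 was the highest of the WT samples, at 461 CPM against 422 to 428 CPM in the others. Pabpc1 was highest of the 7 samples in WT replicate 1, at 802 CPM against 324 to 501 CPM in the other WT samples. Its logFC was 0.19, or 0.50 without that sample. DESeq2 called 2 of the 14, Tpt1 and Nap1l1 (background 0.962%).

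The 78 mitochondrial ribosomal protein genes, whose products form the separate ribosome of that organelle, were counted likewise. Of these, 73 had a logFC above 0 (background 48.1%), with a median of 0.19 (0.08 without WT replicate 1). At an unadjusted p under 0.05, 6 were higher (background 4.51%) and 0 lower (background 5.49%), and 0 passed the adjusted threshold. Their median deviation in WT replicate 1 was −0.39, beside −0.55 for the members. Of 29 factors of rRNA synthesis and ribosome assembly, 26 were above 0 (median 0.11), or 21 without WT replicate 1 (median 0.06, background 49.6%). At an unadjusted p under 0.05, 1 of the 29 was higher (background 4.51%). It was Nop58, a snoRNP protein (logFC 0.25 ± 0.09 (SE), edgeR adjusted p = 0.442), and 0 of the 29 passed the adjusted threshold. All 6 chaperones dedicated to single ribosomal proteins were above 0 (median 0.13), or 4 of 6 without WT replicate 1 (median 0.07), with 0 called and 0 at an unadjusted p under 0.05. The 11 regulators, including Mtor, Larp1, and Myc, had a median of −0.04, with 4 above 0 and 0 called. The median turned to 0.02 without WT replicate 1, with 7 above 0, and that sample lay above the gene means by a median of 0.22.

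Several lists of cell markers moved with the same samples. The 16 erythroid markers, including globin genes, summed to 19790 CPM in WT replicate 1, 29930 to 36770 CPM in the other WT samples, and 42500 to 57920 CPM in Trpc1-/- samples. All 16 had a logFC above 0 (median 0.41, background 48.1%), and 12 were higher at an unadjusted p under 0.05 (background 4.51%). Of the 16, 0 were called by edgeR and 5 were called higher by DESeq2 (background 0.962%). The 6 cycling genes (such as Mki67) summed to 2338 CPM in WT replicate 1, 2565 to 2617 CPM in the other WT samples, and 2917 to 3391 CPM in Trpc1-/- samples. Of these, 6 of 6 had a logFC above 0 (background 48.1%), with 0 called by edgeR and 1 called higher by DESeq2 (background 0.962%). Both lists thus had WT replicate 1 lowest, the order also seen in the members. The neutrophil, B cell, T cell, and macrophage and osteoclast lists below had it too. Unlike the members, the erythroid and cycling lists did not overlap between the genotypes in their sums, nor did the T cell list.

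Markers of other cells showed further differences between the samples. The 10 neutrophil markers summed to 5569 CPM in WT replicate 1 and 13940 to 17620 CPM in the other WT samples, beside 13000 to 17050 CPM in Trpc1-/- samples. The 10 B cell markers summed to 306 to 380 CPM in WT and 369 to 433 CPM in Trpc1-/- samples, the 8 T cell markers to 16.4 to 30.2 and 31.5 to 31.8, the 6 macrophage and osteoclast markers to 649 to 1141 and 863 to 1011, and the 6 endothelial markers to 204 to 216 and 192 to 209. In each of these lists the lowest WT value was that of WT replicate 1. For the chondrocyte markers 0 of 10 had a logFC above 0 (median −0.42, background 48.1%). Their median deviation was −0.57 and −0.50 in Trpc1-/- replicates 1 and 3 and 0.20 in replicate 2, and those same 2 samples had the highest ribosomal protein deviations. The 10 osteoblast markers summed to 7768 to 13910 CPM in WT and 6093 to 10490 CPM in Trpc1-/- samples. Of these, 0 of 10 had a logFC above 0 (median −0.31, background 48.1%), with 0 called by edgeR and 1 called lower by DESeq2 (background 0.828%). No marker of any list was at 0 counts in all samples. Fewer cells of a type and less RNA per cell cannot be told apart in these bulk samples, and the part of the cell makeup in the ribosomal protein values was not tested.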

How the data were processed

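RNA was taken from pooled knee tissue of 4 WT and 3 Trpc1-/- samples, grouped by the sample labels (the study's methods give 3 and 4). Ribosomal RNA was depleted and stranded libraries were sequenced as 75-base pairs. Per the labels' processing notes, the authors used Cutadapt 2.5, HISAT2 2.1.0, StringTie 2.0.3, and build GRCm38. The authors deposited estimated counts per gene derived from StringTie coverage, as whole numbers without normalization, so how multimapping reads were divided among copies is fixed before this point. All 7 sample columns were used.

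Annotation came from GENCODE M21. Genes with CPM above 1 in at least 2 samples (16429, of which 87 members) were tested in R 4.3.3 with edgeR 4.0.16 (TMM, quasi-likelihood test, genotype alone, Benjamini-Hochberg over all tested genes, threshold 0.05). SEs were derived from the F statistic. Length was that of the shortest APPRIS principal transcript of support level 1 where one exists, otherwise the shortest principal transcript or all exons. Log2 deviations used a pseudocount of 0.5 CPM. Paralog shares were tested by exact permutation over 35 splits. DESeq2 1.42.0, limma-voom (limma 3.58.1), other scalings and filters, the replicate block, the mouse number, and each sample left out in turn were alternatives. Fits were tested on simulated data. A floor of 3 counts covers counting error only, and p-values measure the spread between these pooled samples.

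The members, lists, and tests were chosen with earlier results of these data known. The named members are the 7 paralog pairs, the 5 highest and 5 lowest core members per length, the 5 highest and 5 lowest logFC, called members, and members with a special role. Some items that these rules name are not reported here. The genes sharing windows with Rpl29 and the alternatives of DESeq2 with a sample left out, protein-coding totals, and summed copies were added after the data were seen. Lists covered ribosomal proteins outside the rule, elongation factors and TOP mRNAs, ribosome assembly factors, chaperones, regulators, mitochondrial ribosomal proteins, and markers of erythroid, chondrocyte, osteoblast, muscle, neutrophil, B, T, macrophage, endothelial, and cycling cells.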

Additional observations from a re-analysis of the deposited data

Results flagged for a closer look

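In 12 of 103 results examined, 1 of the 4 WT samples stood apart from the other WT samples by Dixon's ratio, the gap to the nearest sample over the whole range, above its 95% critical value. It was WT replicate 1 in all 12, highest in 8 and lowest in 4. Chance flags about 1 in 20 such groups, several of these results share genes, and 11.7% of all tested genes and 5 of the 87 tested members passed the same value. The 3 Trpc1-/- samples were not examined in this way.

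Among the members and their copies, WT replicate 1 was high for Rps3a3 (ratio 0.907 for CPM and 0.926 for its percent of the 3 Rps3a genes) and for Rps3a2 (0.868). For Rpl3l it was high in CPM (0.961) and in the percent of Rpl3l plus Rpl3 (0.966). Rpl29 was low in that sample, both in CPM (0.847) and as a percent of itself and the genes that share its windows (0.916). Outside the members, WT replicate 1 was high in the share of mitochondrially encoded genes (0.916), in Tpt1 (0.832), and in the summed skeletal muscle markers (0.850), and it was low in the median deviation of the chondrocyte markers (0.879), although their summed CPM was highest in that WT sample, and of the neutrophil markers (0.836).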

How the results depend on the processing

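No alternative without a left-out sample gave a called member, and under all of them the median logFC of the members stayed above 0. It was 0.22 with library size alone as the scale (where the median of all genes was −0.067), 0.34 with the replicate block, and 0.45 both with mouse number as a covariate and in the 1300s alone. The number of members higher at an unadjusted p under 0.05, 8 in edgeR, was 24 with DESeq2, 1 with library size alone, 62 with mouse number as a covariate, 34 in the 1300s alone, and 13 on nuclear protein-coding genes alone. The replicate numbers did not pair the samples (correlations of deviations −0.348, −0.205, and −0.044 for numbers 1 to 3). With them as a block that number was 2 in edgeR and 26 in DESeq2, and 0 members were called. Leaving out 1 sample at a time in edgeR, 0 to 2 members were called (2 without WT replicate 1), 0 to 22 were higher at an unadjusted p under 0.05 (18 without WT replicate 3, and 0 without WT replicate 2, Trpc1-/- replicate 1, or Trpc1-/- replicate 3), the median logFC was 0.17 to 0.36, the difference in share 0.0718 to 0.406 points, and that in the subunit ratio −0.00670 to 0.00584. In DESeq2, 3 members were called without WT replicate 1 (with Rpl3l besides Rps3a3 and Rpl29) and 4 without Trpc1-/- replicate 2 (Rpl39, Rplp2, Rps12, and Rps19). The number higher there at an unadjusted p under 0.05 was 36, 50, and 19 without WT replicates 1, 3, and 4, and 3, 29, and 0 without Trpc1-/- replicates 1, 2, and 3. Of the other translation genes, DESeq2 called 2 with all samples and 6 without WT replicate 1, where edgeR called 0. Except where a background is given above, these counts were not set beside the share of all tested genes. They therefore do not single out the members. The cause of the shifts between fits was not tested.

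Signs turned for 6 named members with a logFC near 0 or few reads. The log2 fold change of Rpl39l was −0.034 with library size alone, −0.027 with the replicate block (−0.026 in DESeq2), −0.026 in replicates 1 to 3 without it, and −0.21 with mouse number as a covariate or in the 1300s alone. With 1 sample left out it lay between −0.27 and 0.24 in edgeR, and DESeq2 gave −0.0245, −0.091, and −0.024 without WT replicates 2, 3, and 4 and −0.26 without Trpc1-/- replicate 3. The log2 fold change of Rpl3l was −0.041 in replicates 1 to 3 without the block and −0.45 with mouse number or in the 1300s alone. It lay between −0.23 and 1.36 with 1 sample left out in edgeR, and DESeq2 gave −0.033, −0.052, and −0.069 without WT replicates 2, 3, and 4 and −0.25 without Trpc1-/- replicate 3. Rps4l was 0.046 with the block (0.047 in DESeq2), 0.022 in replicates 1 to 3 without it, 0.092 with mouse number as a covariate, 0.093 in the 1300s alone, and −0.23 to 0.022 with 1 sample left out (0.020 in DESeq2 without WT replicate 4). Rps3a1 was 0.12 with mouse number or in the 1300s alone and −0.26 to 0.043 with 1 sample left out, where DESeq2 gave 0.057 without Trpc1-/- replicate 2. Rpl7l1 lay between −0.024 and 0.20 (DESeq2 −0.019 without WT replicate 1) and Rpl32l between −0.16 and 0.38 (DESeq2 −0.16 without Trpc1-/- replicate 3). The Rpl3l share differed by 0.184 points without WT replicate 1 and by 0.0163 points without Trpc1-/- replicate 1. The Rpl7l1 share differed by −0.887 to −1.12 points with 1 sample left out, designs too small to reach a p of 0.05. Rpl3l, Rpl32l, Rpl39l, and Rps12l1 had as few as 43, 51, 66, and 75 counts in a sample.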
